A study of Mus musculus with 4 samples.

Results

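The sirtuin genes Sirt1 to Sirt7 encode the NAD-dependent deacylases, and the chromatin over these 7 genes was examined in bone mesenchymal stem cells (MSCs) of old and young mice. Peaks of accessible chromatin were counted as sirtuin peaks when they overlapped one of the 7 genes or the 5 kb upstream of its annotated start (GENCODE vM21, mouse build mm10, named GRCm38 in the assembly's own terms). The rule found 20 of the 117282 peaks measured. The samples were assayed by ATAC-seq, in which a transposase cuts and tags open DNA so that the signal at a site reports how accessible it is. The old group held 2 samples of MSCs from mice aged 18 to 22 months and the young group 2 samples from mice aged 3 to 5 months, and every sample was cultured at 2% O2, so that low oxygen was common to both groups. Per the study's methods, wild-type male C57BL/6N mice of 3 to 5 months were used, and CD45-/TER-119-/CD140a+/Sca-1+ cells were sorted after outgrowth from bone fragments of the hind limbs. Sex and strain of the old mice, and the number of mice behind each sample, are not given in the sources used here. The labels do not say that the samples came from separate animals, so p-values measure the spread between these samples only.

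Sirtuins remove acetyl and other acyl groups from lysines and consume NAD in each reaction, which ties their activity to the metabolic state of the cell. SIRT1, SIRT6 and SIRT7 are found mostly in the nucleus, SIRT2 mostly in the cytoplasm, and SIRT3, SIRT4 and SIRT5 in mitochondria. In mesenchymal cells and bone, sirtuins are best known for deacetylating histones and transcription factors and for their links to ageing.

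Every sirtuin gene had at least 1 accessible promoter peak, meaning a peak within 1 kb of the start of one of its protein-coding transcripts. Where a gene had several, the peak with the highest mean value is called its main promoter peak. Stretches upstream of the starts of Sirt1, Sirt2 and Sirt5 are shown because they lie inside the main promoter peaks, outside annotated exons, and differ widely in base composition. The sequences are RefSeq's, build GRCm38.p6, written 5′ to 3′ on the strand of the gene, with capitals for matches to CACGTG (the E-box), GGGCGG (the GC box, or its reverse complement CCGCCC) and CCAAT (the CCAAT box). The Sirt1 stretch is chr10:63339051-63339285 on the minus strand, that of Sirt2 is chr7:28766641-28766734 on the plus strand and that of Sirt5 is chr13:43365285-43365495 on the plus strand.
Sirt1: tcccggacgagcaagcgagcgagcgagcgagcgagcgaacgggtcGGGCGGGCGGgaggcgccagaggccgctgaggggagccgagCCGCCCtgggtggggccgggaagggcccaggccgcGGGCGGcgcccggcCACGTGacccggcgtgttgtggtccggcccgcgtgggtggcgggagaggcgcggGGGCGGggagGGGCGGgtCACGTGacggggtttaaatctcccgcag
Sirt2: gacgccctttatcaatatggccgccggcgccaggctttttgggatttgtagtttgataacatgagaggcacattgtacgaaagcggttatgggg
Sirt5: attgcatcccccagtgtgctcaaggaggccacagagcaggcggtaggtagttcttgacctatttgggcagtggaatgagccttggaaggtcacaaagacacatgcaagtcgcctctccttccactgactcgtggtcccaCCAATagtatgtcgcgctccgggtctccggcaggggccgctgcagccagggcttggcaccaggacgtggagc
The Sirt1 stretch had a GC content of 78.3% and held 36 CG dinucleotides in 235 bases, with 2 E-boxes and 6 GC boxes, of which a pair overlapped. The Sirt2 stretch is the whole gap between the first exons of Sirt2 and of Nfkbib, a gene on the opposite strand, and held none of the motifs searched in its 94 bases. In the 211 bases of Sirt5 there was 1 CCAAT box.

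All sirtuins could be matched to RefSeq promoters, with 9 windows of 250 bases upstream of a start for the 7 genes. Each of the 9 windows had more CG dinucleotides than the median of 6 over all 32851 windows, from 12 at Sirt7 to 39 at Sirt1, which stood at percentile 98.4. Motifs were searched on both strands, and a match is a description of the letters alone. CACGTG was found in the Sirt1 window only, and in 6.02% of all windows. Its inner part ACGTG, which every CACGTG also contains, was in 4 of the 9 sirtuin windows (Sirt1, Sirt4, Sirt5 and 1 of Sirt6) and in 16.6% of all. GGGCGG was in 6 of the 9, at every sirtuin but Sirt4, and in 32.7% of all. CCAAT was in 3 of the 9 (Sirt2, Sirt3 and Sirt5) and in 33.8% of all. The letters CCGGAAG, bound by ETS factors, were found at Sirt3, Sirt6 and Sirt7 (6.91% of all windows), and GCATGCGC, part of the NRF1 motif, at Sirt6 and Sirt7 (2.26% of all windows). TGANTCA, the AP-1 motif (6.75% of all), and TGTTTAC, a FOXO motif (3.17% of all), were in none of the 9.

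The deposited value of a peak is named RPKM but is a count relative to the library total, with no division by peak length. All values of a sample were whole multiples of 1 step (100% within a tolerance of 0.01 counts), and the steps gave library totals of 28259470 to 32559794 counts under a scale of 10000000. A peak with 3 counts had a value between 0.921 and 1.06. The median value over all peaks was 13.3 to 16.0 in old and 16.6 to 18.0 in young samples. Each sample was scaled by its RLE factor, its median ratio to the typical sample, and the factors ranged from 0.813 in old replicate 1 to 1.15 in young replicate 2. Old replicate 2 stood apart in the share of its signal on mitochondrial DNA, 6.52% against 13.5% to 15.7% in the other 3 samples. Its peaks on chromosome 11, where Sirt7 lies, were also higher by a median log2 difference of 0.18 relative to the young samples, against 0.021 in old replicate 1. Promoter peaks of both genes for the sorted surface proteins, Ly6a (Sca-1) and Pdgfra (CD140a), were present, and their summed RLE-scaled value was 496 to 547 in old and 422 to 465 in young samples. Ly6a alone overlapped between the groups, with 139 and 123 in old and 121 and 126 in young samples. Pdgfra had 357 and 424 in old and 344 and 296 in young samples. The 6 other mesenchymal markers had promoter peaks too, with sums of 1210 to 1224 in old and 1228 to 1242 in young samples. Most of each sum came from Cd44, with 703 and 727 in old and 750 and 740 in young samples. Of the blood markers reported here, Ptprc (CD45), Itgam and Cd3e had no promoter peak, and Csf1r had one with values of 77.5 and 119 in old and of 88.6 and 89.3 in young samples. Of 3 endothelial markers Cdh5 had none, and Pecam1 and Kdr together gave 40.9 to 42.2 in old and 30.2 to 32.4 in young samples. The part of these markers in the results below was not tested.

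The 20 peaks were unevenly spread over the family. Sirt1, the longest of the 7 genes with 62700 bp (chr10:63319005-63381704, minus strand), had 6 peaks, Sirt2 and Sirt7 had 3 each, and the other 4 genes had 2 each. Many peaks served a neighbouring gene as well. The starts of Sirt2 and Nfkbib were 95 bp apart on opposite strands, those of Sirt3 and Psmd13 (a proteasome subunit) 155 bp apart and those of Sirt6 and Ankrd24 743 bp apart, and each pair lay inside 1 peak. Accessibility at the promoters of Sirt2, Sirt3 and Sirt6 therefore cannot be assigned to the sirtuin or to its partner. In contrast, the main promoter peaks of Sirt1, Sirt4, Sirt5 and Sirt7 held no protein-coding start of another gene. At Sirt1 the main promoter peak (chr10:63337401-63340200) was not at the annotated gene start: its midpoint lay 42904 bp downstream, over the starts of the shorter transcripts, while the upstream start belongs to a single longer transcript of 14 exons and is 739 bp from a start of Dnajc12.

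**Figure D1:**
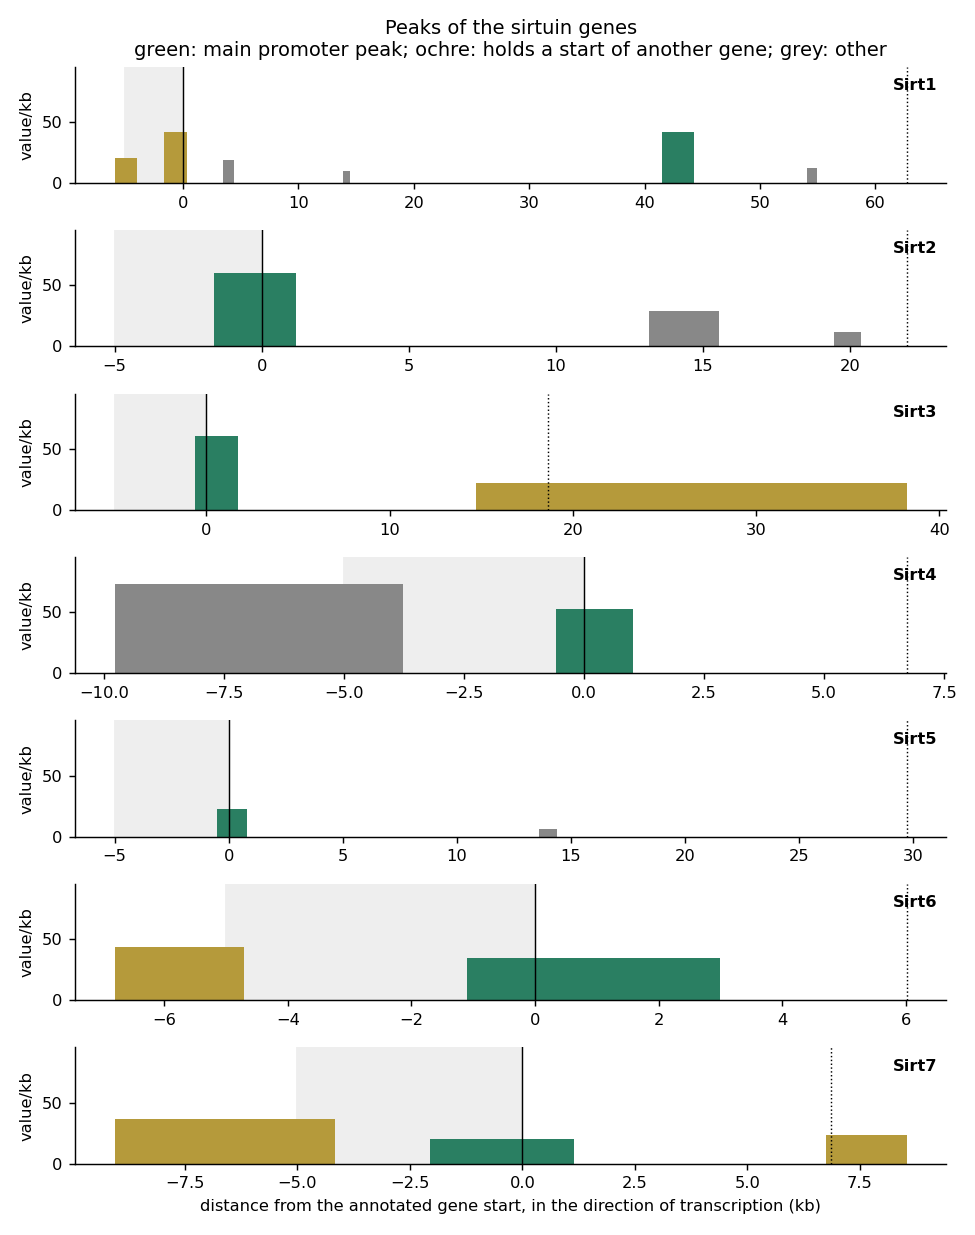
Peaks of Sirt1 to Sirt7 drawn against distance from the annotated start of each gene in kb, in the direction of transcription (green, main promoter peak; ochre, another peak holding a start of a different gene; grey, the rest). The main promoter peak covers the annotated start in 6 of the 7 genes and lies far inside the gene model at Sirt1, and the widest peak spans 23500 bp at the 3′ end of Sirt3.

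Levels of different genes were compared per kb of peak, as the mean RLE-scaled value of the 4 samples. Sirt2 (60.4 ± 11.5 per kb, SD, n = 4), Sirt3 (60.1 ± 8.72) and Sirt4 (52.6 ± 5.25) had the highest values per kb. Sirt1 (41.8 ± 4.14) and Sirt6 (34.2 ± 2.17) came next. Sirt5 (22.4 ± 1.57) and Sirt7 (20.1 ± 2.05) were lowest. The median of all 16213 promoter peaks was 27.1 per kb, and Sirt2, at percentile 90.3 of them, and Sirt7, at percentile 35.6, marked the ends of the family. The order depended on the division by peak width. By the value of the whole peak, Sirt2 stood at percentile 79.2, Sirt6 at 72.1, Sirt3 at 71.6 and Sirt1 at 64.4. Sirt4, with a narrow peak, stood below them at 51.3, followed by Sirt7 at 41.8 and Sirt5 at 22.8. Per kb, Sirt2 and Sirt3, Sirt3 and Sirt4, and Sirt5 and Sirt7 overlapped in their sample values and do not differ beyond their spread. In contrast, Sirt4 and Sirt1, Sirt1 and Sirt6, and Sirt6 and Sirt5 did not overlap per kb over these 4 samples. Compared with other promoters, the base composition of the Sirt1 peak stood out, with an observed to expected CpG ratio of 0.971 (percentile 99.8) against 0.359 to 0.594 at the other 6 and a median of 0.486 over all promoter peaks.

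**Figure D2:**
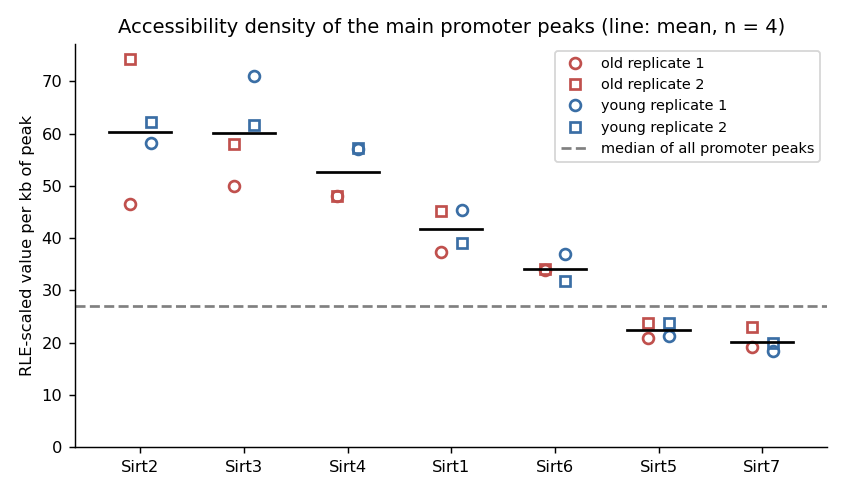
RLE-scaled value per kb of peak for the main promoter peak of each sirtuin gene, 1 point per sample, with a line at the mean of the 4 samples and a dashed line at the median of all promoter peaks (27.1). The means of Sirt2, Sirt3, Sirt4, Sirt1 and Sirt6 lie above the dashed line and those of Sirt5 and Sirt7 below it.

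To ask whether sirtuin chromatin differs between old and young MSCs, each peak was tested with limma on log2 values (RLE-scaled value + 1), with Benjamini-Hochberg adjustment over all 117282 peaks and a threshold of adjusted p 0.01. None of the 20 sirtuin peaks passed, and over all peaks 66 did, which is 0.0563%. Without adjustment 2 sirtuin peaks had p below 0.05, against 16.4% of all peaks and 9.65% of all promoter peaks. Many of the 20 are promoter peaks, so both shares are given. On the recovered counts, limma-voom also called 0 of the 20, with 2 below 0.05. The median log2 fold change (old minus young) was -0.034 over the 20 peaks and 0.0011 over all peaks. Of the 20, 13 had the lower mean in old, 65% against 49.9% of all peaks and 54.7% of all promoter peaks. Both old samples lay below both young samples at 5 peaks (24.2% of all peaks and 25.7% of all promoter peaks did so). They lay above them at 1 (23.2% of all peaks and 15.7% of all promoter peaks). For the peaks with groups that did not overlap, the first count is close to the background and the second under it. In cultures such as these, fewer cells with an open site and a less open site in each cell cannot be told apart.

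The size of the family's median depended on the scaling. As deposited, without RLE factors, the median of the 20 peaks was -0.32, 19 of them were lower in old and 11 had both old samples below both young (43.5% of all peaks did), while 0 had both above (7.56% of all peaks). All peaks moved likewise, with a median of -0.27 and 74.6% lower in old. All promoter peaks had a median of -0.31, and 86.8% of them were lower in old. Of these 16213 promoter peaks, 8208 had both old samples below both young and 481 had both above. Again 0 sirtuin peaks passed limma's adjusted threshold (1.18% of all peaks did under this scaling), and 3 had an unadjusted p below 0.05 (20.2% of all peaks). Of the 16213 promoter peaks, 38 passed and 2862 had an unadjusted limma p below 0.05. Among the 7 main promoter peaks, both old samples were below both young at 2 (25.7% of all promoter peaks) and above at 0 (15.7% of all promoter peaks) after RLE scaling, with a median of -0.033 against -0.027 over all promoter peaks.

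**Figure D3:**
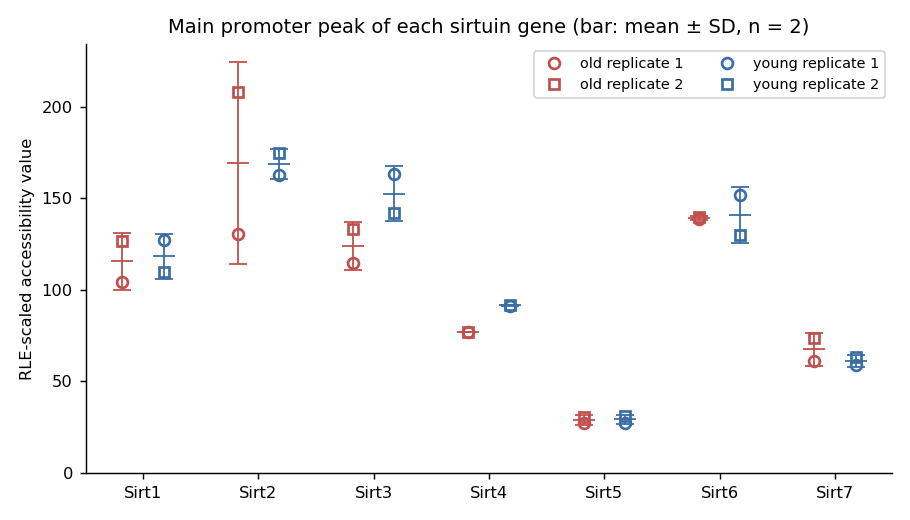
RLE-scaled accessibility value of the main promoter peak of each sirtuin gene in the 2 old and 2 young samples, with bars at the mean and error bars of 1 SD (n = 2). Old and young points are apart at Sirt3 and Sirt4, where both old values are lower, and overlap at the other 5 genes.

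Among the nuclear sirtuins, SIRT1 deacetylates histones and factors such as p53 and the FOXO proteins. Its main promoter peak had RLE-scaled values of 105 and 127 in old replicates 1 and 2 and of 127 and 110 in young replicates 1 and 2. The 4 values interleave, and the log2 fold change was -0.036 (SE 0.17, 95% interval -0.40 to 0.32, limma adjusted p = 0.943). The peak over the upstream start of Sirt1 and a start of Dnajc12 (chr10:63381301-63383300) held 83.9 and 71.4 in old and 86.6 and 93.5 in young samples. Both old samples are below both young there, with a log2 difference of -0.21 (SE 0.18, limma adjusted p = 0.595) that did not pass. A peak in the first intron of that longer transcript (chr10:63377301-63378200) showed the same order, with 15.9 and 14.0 in old and 19.6 and 18.7 in young samples, and its log2 difference was -0.34 (SE 0.26, limma adjusted p = 0.562). The other 3 peaks of Sirt1 overlapped between the groups. They were an intronic peak of 800 bp (log2 difference 0.15), an intronic peak of 600 bp whose values of 4.16 to 7.96 were among the lowest of the family (-0.076), and a peak at another start of Dnajc12 (-0.083).

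SIRT6 deacetylates histone H3 and takes part in DNA repair. The promoter peak that it shares with Ankrd24 (chr10:81624801-81628900) had values of 139 and 140 in old and of 152 and 130 in young samples. Its difference was -0.012 (SE 0.16, 95% interval -0.34 to 0.32, limma adjusted p = 0.982). A further peak at a start of Ankrd24, 5754 bp from the Sirt6 start, had a log2 difference of -0.077.

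SIRT7 is concentrated in the nucleolus, where it acts on ribosomal DNA transcription. Its promoter peak (chr11:120624101-120627300, also over the 3′ exon of Mafg and the microRNA gene Mir6936) had values of 61.1 and 73.8 in old and of 59.05 and 63.5 in young samples. It was the one main promoter peak with a positive difference, 0.13 (SE 0.19, limma adjusted p = 0.788), and the difference was 0.026 with RLE factors computed per chromosome and -0.15 in the values as deposited. The peak at the start of Mafg (chr11:120629401-120634300), a small MAF transcription factor gene upstream of Sirt7, held 155 and 237 in old and 172 and 159 in young samples. Only old replicate 2 was high there. The difference of 0.22 (limma adjusted p = 0.582) became 0.52 without old replicate 1 and -0.088 without old replicate 2. The value of 0.52 sets old replicate 2 alone, with its higher chromosome 11 signal, against the young samples. That of -0.088 sets old replicate 1 alone against them, and no p is given for either. At the other end of the gene, the peak at the start of Pcyt2 (chr11:120616701-120618500) had a log2 difference of -0.22 with overlapping groups.

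The mostly cytoplasmic SIRT2 deacetylates tubulin among other proteins. The promoter peak shared with Nfkbib (chr7:28765101-28767900) had values of 130 and 208 in old and of 163 and 175 in young samples. Its old samples were the most unlike of the 7 main promoter peaks, lying on either side of the young, and the log2 fold change was -0.033 (SE 0.19, 95% interval -0.42 to 0.36, limma adjusted p = 0.952). Inside the gene, a peak in intron 7 of Sirt2-202 (chr7:28779901-28782300) held 66.3 and 101 in old and 58.7 and 51.3 in young samples. This was the one sirtuin peak with both old samples above both young, at a log2 difference of 0.56 (SE 0.21, 95% interval 0.12 to 1.01, unadjusted p = 0.0163, limma adjusted p = 0.192). Without old replicate 1 the difference was 0.86, and without old replicate 2 it was 0.27, the lowest of any setting run. Each of these sets 1 old sample alone against the young samples, so no p is given for either. Under the values as deposited the difference was 0.28. The remaining peak of Sirt2, intronic as well, had values of 10.1 to 12.05 and a difference of 0.023.

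SIRT3 is the main deacetylase of mitochondrial proteins, SIRT4 acts on mitochondrial metabolic enzymes, and SIRT5 removes succinyl and malonyl groups. The promoter peak shared by Sirt3 and Psmd13 (chr7:140880601-140882900) had values of 115 and 133 in old and of 163 and 142 in young samples. Old values were below young in all 4 pairs of samples, by log2 differences of -0.50 to -0.090. The log2 difference was -0.30 (SE 0.16, 95% interval -0.64 to 0.045, limma adjusted p = 0.380), which did not pass. At its 3′ end Sirt3 met a peak of 23500 bp that also covers the starts of Bet1l, Odf3, Ric8a, Scgb1c1 and Gm45785. Values there were 528 and 532 in old and 539 and 505 in young samples, a log2 difference of 0.024.

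The Sirt4 promoter peak (chr5:115483701-115485300) had values of 77.0 and 76.8 in old and of 91.2 and 91.7 in young samples. Replicates were closer at this peak than at any other main promoter peak (76.9 ± 0.124 in old and 91.5 ± 0.341 in young, SD, n = 2), and the old samples were lower in all 4 pairs. The log2 difference of -0.25 (SE 0.18, 95% interval -0.62 to 0.12, limma adjusted p = 0.519) did not pass. The SE from limma draws on peaks of similar level and not on these 4 values alone. A peak of 6000 bp upstream of Sirt4 (chr5:115488501-115494500), over the small nuclear RNA genes Gm24265 and Gm24407 and a pseudogene, held 400 and 394 in old and 453 and 495 in young samples. Both old samples were below both young there too, with a log2 difference of -0.25 (SE 0.12, unadjusted p = 0.0446, limma adjusted p = 0.292). Small nuclear RNA genes have near-identical copies, so reads in this peak may belong to another copy, which was not tested.

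Sirt5 had the lowest counts of the family at its main promoter. That peak (chr13:43365001-43366300) had values of 27.1 and 30.8 in old and of 27.5 and 30.9 in young samples. The groups lay on top of each other, with a log2 difference of -0.012 (SE 0.23, 95% interval -0.50 to 0.47, limma adjusted p = 0.987). A weak peak at the start of the transcript Sirt5-209 (chr13:43379101-43379900) rested on 11 to 23 counts per sample and differed by 0.0073 (SE 0.39, 95% interval -0.81 to 0.83), the widest interval of the 20 peaks.

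**Figure D4:**
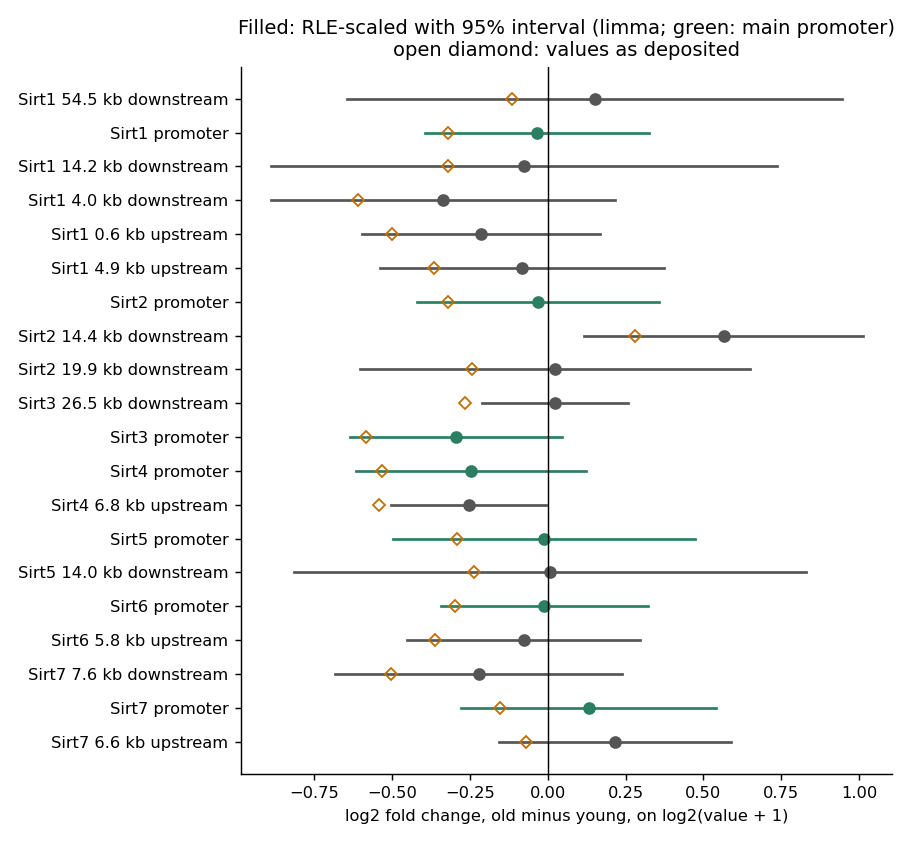
Log2 fold change (old minus young) of the 20 sirtuin peaks, with filled points and 95% intervals from limma after RLE scaling (green, main promoter peaks) and open diamonds for values as deposited. The intervals of 18 of the 20 peaks include 0, and every diamond lies to the left of its filled point.

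Leaving out 1 sample at a time moved the small differences across 0. Without old replicate 1 the main promoter peaks of Sirt1, Sirt2 and Sirt5 had differences of 0.10, 0.30 and 0.077, and without old replicate 2 they had -0.17, -0.37 and -0.10. At Sirt3 the difference stayed between -0.40 and -0.19 and at Sirt4 between -0.25 and -0.24, whichever sample was left out. Both old samples were below both young at Sirt3 and at Sirt4, so leaving out 1 sample could not change the sign there.

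The promoter peaks most like that of Sirt3 over the 4 samples, among 13708 promoter peaks of other protein-coding genes, were those of Magi1 (Euclidean distance 0.0551 in log2 values), Tecpr1 (0.101) and Cdk7 (0.102). Magi1 had values of 114 and 134 in old and of 158 and 140 in young samples, close to those of Sirt3 in each sample. For Sirt6, taken because its difference was the smallest after RLE scaling (a rank that it did not keep under several other settings, among them the values as deposited, quantile normalization and limma-voom), the nearest were those of Egfr (0.0558), Ube2v1 (0.0815) and Rassf2 (0.0843). Sirt3 was taken for the largest difference after RLE scaling, a rank that it did not keep without old replicate 1 or without young replicate 1. Distance in both level and pattern was used, over 4 samples only.

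Sirtuins depend on enzymes that make NAD and compete with others that use it. Promoter peaks were present for 33 of 36 genes of the pathway and lacking at Qprt, Bst1 and Cps1. None of the 33 passed limma's adjusted threshold in either direction (0.037% of all promoter peaks did) and none had an unadjusted p below 0.05 (9.65% of all promoter peaks), and limma-voom called 0 too. Their median log2 fold change was -0.044, with 22 of 33 lower in old, against -0.027 and 54.7% lower over all promoter peaks. By role, the median was -0.068 for 11 genes of NAD synthesis, with 8 lower. It was -0.16 for 7 genes of NAD use and nicotinamide clearance, with 5 lower, and -0.039 for 13 genes of sirtuin substrates, with 8 lower. The SIRT1 regulators Ccar2 and Rps19bp1 had differences of -0.022 and 0.28. Nampt, the rate-limiting enzyme of NAD salvage, held 185 and 209 in old and 201 and 218 in young samples (log2 difference -0.092, SE 0.14).

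The largest positive differences of these lists were at Nmnat1, the nuclear enzyme of the last step of NAD synthesis, and at Trp53, which encodes p53. Nmnat1 had 80.0 and 103 in old and 74.3 and 69.7 in young samples, a log2 difference of 0.33 (SE 0.19, limma adjusted p = 0.401). Trp53, on chromosome 11 like Sirt7, had 148 and 255 in old and 167 and 153 in young samples, with old replicate 2 alone above the others and a log2 difference of 0.28 (limma adjusted p = 0.506). On the other side were Nmnat2 and Nnmt, an enzyme that methylates nicotinamide and so removes it from salvage. Nmnat2 had 47.3 and 62.2 in old and 65.4 and 70.9 in young samples, a log2 difference of -0.32 (SE 0.20, limma adjusted p = 0.453). Nnmt had 248 and 219 in old and 272 and 295 in young samples, a log2 difference of -0.28 (SE 0.14, limma adjusted p = 0.318). Leaving out old replicate 1 sets old replicate 2 alone against the young samples. The log2 differences were then 0.67 at Trp53, 0.51 at Rps19bp1, 0.33 at Acly, -0.37 at Nnmt and -0.37 at Parp2. These genes were picked from the lists by that fit, and a lone old sample has no spread of its own. Of them, Trp53 and Acly lie on chromosome 11, where old replicate 2 was higher by a median log2 difference of 0.18. The part of that offset in their differences was not tested. Peaks of these lists were not checked for starts of neighbouring genes.

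For comparison, the zinc-dependent histone deacetylases, which do not use NAD, had promoter peaks at 11 of 11 genes. Again 0 passed limma's adjusted threshold and 3 of 11 had an unadjusted p below 0.05, against the 9.65% of all promoter peaks, with a median log2 fold change of -0.025 and 6 lower in old. Hdac5 had 151 and 195 in old and 125 and 119 in young samples, a log2 difference of 0.49 (SE 0.17, limma adjusted p = 0.145). Hdac6 had 94.7 and 91.2 in old and 137 and 122 in young samples, a log2 difference of -0.47 (SE 0.17, limma adjusted p = 0.162). Hdac5 lies on chromosome 11 and Hdac6 on the X chromosome. No sirtuin promoter had a difference as far from 0 as these, and the difference between the families was not tested.

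**Figure D5:**
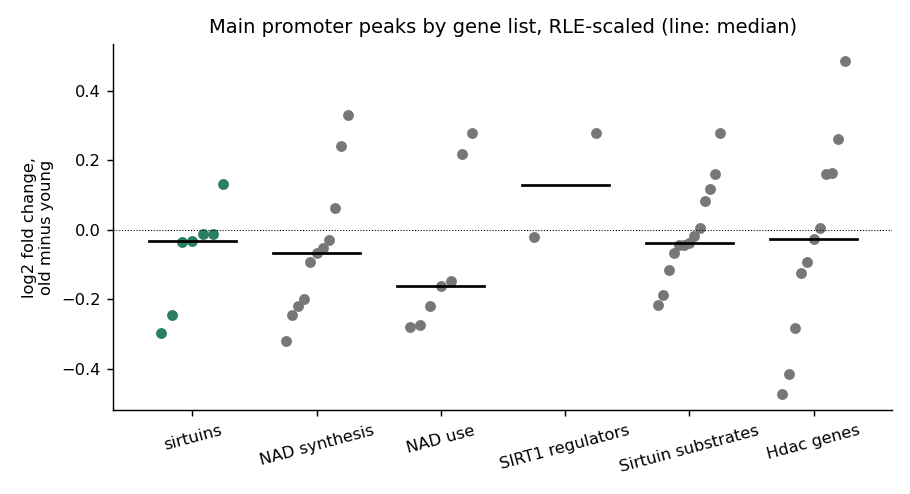
Log2 fold change (old minus young, RLE-scaled) of the main promoter peak of each gene, by list, with a line at the median of each list. The 7 sirtuin promoters lie between -0.30 and 0.13, and the zinc-dependent deacetylases between -0.47 and 0.49.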

How the data were processed

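ATAC-seq of 4 samples was used, 2 old and 2 young, grouped by the age label. The authors deposited 1 score per peak and sample, named RPKM, with decimal commas, which is a count per library total without division by peak length. Per the labels and the paper's methods, reads were mapped to mm10 with Bowtie2 and duplicates removed with Picard, and chromstaR gave peaks and values. The methods describe this for hypoxia- and normoxia-cultured cells and fit edgeR with RLE factors, which is not stated separately for old and young cells.

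Here, log2(RLE-scaled score + 1) was fitted with limma 3.58.1 (trend and robust moderation) in R 4.3.3, with Benjamini-Hochberg adjustment over all 117282 peaks. The limma step was tested on simulated data. Python 3.11.15, numpy 2.4.6, pandas 2.3.3 and matplotlib 3.10.9 were used for annotation, summaries and figures. Depth was 28259470 to 32559794 counts per sample. The pseudocount of 1 understates changes of weak peaks.

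Genes, lists and tests were chosen with earlier results of these data known. Every sirtuin peak is accounted for, and of the pathway lists the 2 genes with the largest difference in each direction are named. Hdac5, Hdac6, Nampt and the pathway genes given for the fit without old replicate 1 were named after their values were seen. The smallest p that exact permutation allows for 2 against 2 samples is 0.33. Samples sharing a replicate number had deviations from their group means that correlated at -0.0993, so the numbers were not treated as pairs. Alternatives were other scalings, pseudocounts, filters, moderation, a replicate block, limma-voom, GC and width correction, other windows and leaving out each sample. Some blood markers of the list are not reported here.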

Additional observations from a re-analysis of the deposited data

How the results depend on the processing

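The count of sirtuin peaks past the threshold was 0 under every alternative run except leaving out 1 sample, where it was 0 to 2, and the count of pathway promoters was 0 except for 0 to 5 there. Over all peaks, 66 calls became 1385 with values as deposited, 110 with RLE factors per chromosome, 24 with a pseudocount of 0.1, 15 without weak peaks, 0 with plain variance moderation (18137 at an unadjusted p below 0.05), 144 with limma-voom, 185 when corrected for GC and width, 1316 at adjusted p below 0.05 and 10 to 10313 when 1 sample was left out (10313 without old replicate 1, 1690 without old replicate 2, 10 without young replicate 1 and 12 without young replicate 2). With a replicate block there were 1269 calls, 0 of them at sirtuin peaks. The labels do not say whether the replicate numbers pair the samples, so this is given as a check only. The cause of these shifts was not tested. The planned edgeR fit was not run, because the table was treated as scores; limma-voom on the counts recovered from the steps was run.

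The median over sirtuin peaks moved from -0.034 to -0.32 as deposited and -0.16 with the GC and width correction, and from -0.10 to -0.036 when 1 sample was left out. The share of sirtuin peaks lower in old, 65%, was 95% as deposited, 55% with equal total signal and 55% with quantile normalization. It was 80% with the GC and width correction, 77.8% for the 9 peaks at an own start and 60% to 65% when 1 sample was left out. As deposited, 74.6% of all peaks and 86.8% of all promoter peaks were lower. The 9 peaks kept the main scaling, under which 54.7% of all promoter peaks were lower. No such share is given for the other alternatives. Of 84 promoter values under the other alternatives 28 equal the value reported by construction, and of the other 56 8 changed sign. These were Sirt7 as deposited (-0.15), Sirt5 (0.0096) and Sirt6 (0.011) with equal total signal, Sirt1 (0.0041), Sirt2 (0.016) and Sirt6 (0.035) with quantile normalization, and Sirt5 (0.00019) and Sirt6 (0.0092) with factors per chromosome. The GC and width correction gave -0.16 for Sirt1, -0.14 for Sirt2, -0.38 for Sirt3, -0.24 for Sirt4, -0.18 for Sirt5, -0.13 for Sirt6 and 0.0099 for Sirt7. Leaving out 1 sample gave -0.17 to 0.10 for Sirt1, -0.37 to 0.30 for Sirt2, -0.40 to -0.19 for Sirt3, -0.25 to -0.24 for Sirt4, -0.10 to 0.077 for Sirt5, -0.12 to 0.099 for Sirt6 and -0.0032 to 0.27 for Sirt7. Precision is limited by 2 samples per group and, at the weakest sirtuin peak, by 11 to 23 counts per sample.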
